A study of Homo sapiens with 9 samples.

Results

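The stretch of human chromosome 13 between 80 and 89 Mb (GRCh38) is a gene desert that holds SLITRK1, SLITRK6 and SLITRK5, and it was examined here for chromatin accessibility in neuroblastoma cells. Its members were the regions of the deposited ATAC-seq count table whose centres lay in that window: 416 of 148797 regions, of which 305 of 119417 had enough counts to be tested. The regions were 152 to 2930 bases wide (median 359). The gene table used here places 6 protein-coding genes in the window, SPRY2, SLITRK1, SLITRK6, SLITRK5 and the predicted genes LOC124900338 and LOC124903229, beside 38 long non-coding RNAs. Only 4 members lay within 1 kb of an end of a protein-coding gene, and 95 lay more than 1 Mb from any such end. The window was placed around a region that was nearly absent in the control libraries and present under both oligonucleotides, so the members were chosen by measured values: the low control counts of that region and its difference from the control under both oligonucleotides. That region's difference from the control is described below without a test.

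ATAC-seq uses the transposase Tn5 to insert sequencing adapters into open DNA, so that the count in a region rises with its accessibility. The libraries came from SK-N-BE(2)c, a single human neuroblastoma cell line, collected 48 h after transfection by a cationic lipid with 100 nM of an antisense oligonucleotide (ASO). ASO2 and ASO10 are 2 different oligonucleotides that both target NESPR, a long non-coding RNA. The control group, NCA, received a negative control oligonucleotide, so every group was transfected and none was left untreated. Each group had 3 libraries, and nothing in the labels says whether they came from separate cultures. The p-values then measure only the spread between these libraries, which may be technical. The genotype of the line is shared by all groups, and the level of NESPR itself was not analysed here.

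As background, the SLITRK proteins are single-pass transmembrane proteins of neurons with leucine-rich repeats outside the cell. At synapses they sit on the receiving side and bind receptor tyrosine phosphatases of the LAR family (PTPRD, PTPRS and PTPRF) on the sending side, which promotes the assembly of synaptic contacts. Several members also change neurite outgrowth. Gene deserts around developmental genes often hold distal regulatory elements far from any promoter. Adrenergic neuroblastoma cells resemble sympathetic neuroblasts and are marked by HAND2, GATA3, PHOX2A and enzymes of catecholamine synthesis.

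The starts of the named protein-coding genes differ in sequence, and they are shown because the regions over them are the gene-end values reported next. The runs below are the 250 bases before each gene's start on the gene's own strand, 5′ to 3′, from RefSeq (GRCh38.p14). Capitals mark each match to GGGCGG (the GC box, on either strand) or to TGANTCA (an AP-1-type site). The SLITRK1 run lies at chr13:83882475-83882724 on the minus strand, that of SLITRK5 at chr13:87671121-87671370 on the plus strand, that of SLITRK6 at chr13:85799420-85799669 on the minus strand, and that of SPRY2 at chr13:80341127-80341376 on the minus strand.
SLITRK1: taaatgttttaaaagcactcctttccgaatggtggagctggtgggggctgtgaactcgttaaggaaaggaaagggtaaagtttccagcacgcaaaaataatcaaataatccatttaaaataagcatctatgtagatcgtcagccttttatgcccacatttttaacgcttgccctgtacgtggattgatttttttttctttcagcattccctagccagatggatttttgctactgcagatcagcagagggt
SLITRK5: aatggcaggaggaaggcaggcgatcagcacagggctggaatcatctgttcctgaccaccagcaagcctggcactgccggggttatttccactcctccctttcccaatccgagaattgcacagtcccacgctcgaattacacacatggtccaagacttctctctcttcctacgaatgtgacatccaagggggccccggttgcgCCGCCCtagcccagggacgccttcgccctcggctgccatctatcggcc
SLITRK6: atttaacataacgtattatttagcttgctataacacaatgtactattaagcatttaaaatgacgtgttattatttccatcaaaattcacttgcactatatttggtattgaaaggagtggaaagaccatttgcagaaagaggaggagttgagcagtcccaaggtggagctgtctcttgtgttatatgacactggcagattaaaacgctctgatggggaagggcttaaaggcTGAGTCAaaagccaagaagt
SPRY2: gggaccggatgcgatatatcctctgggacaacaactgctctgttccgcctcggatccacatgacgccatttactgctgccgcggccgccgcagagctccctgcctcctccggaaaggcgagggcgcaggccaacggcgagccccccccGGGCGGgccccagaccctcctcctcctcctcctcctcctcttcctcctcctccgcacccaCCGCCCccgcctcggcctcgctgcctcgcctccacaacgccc

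GC content was 40.4% for SLITRK1, 37.6% for SLITRK6, 59.2% for SLITRK5 and 70.4% for SPRY2, against a median of 58.0% over 35114 RefSeq promoters of the same length. The CpG count followed the same order, with 3 for SLITRK6, 6 for SLITRK1, 13 for SLITRK5 and 23 for SPRY2 (median 11). GGGCGG was found once before SLITRK5 and at 2 places before SPRY2, and 42.6% of all promoters hold it. TGANTCA was found once before SLITRK6, a match that 6.57% of promoters hold. CCAAT was found once before SLITRK5 (32.0% of promoters). None of these 4 runs held TATAAA (10.7% of promoters), CAGCTG (14.0%) or GATAA (20.4%), all searched on both strands. A deposited region covered all 250 bases for SLITRK5 and SPRY2 and 223 bases for SLITRK6, while no region overlapped the 250 bases before SLITRK1. A match is only a description of these letters.

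The window also holds hsa-miR-4500, encoded in MIR4500HG upstream of SLITRK5 at chr13:87618671-87618687 on the minus strand. It is shown beside let-7a because both have the same seed, bases 2 to 8, given in capitals, which 11 mature human miRNAs of the RefSeq table share. let-7 miRNAs are known for restraining growth-promoting genes in differentiated cells.
hsa-miR-4500: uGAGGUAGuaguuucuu
hsa-let-7a-5p: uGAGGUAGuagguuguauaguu
No deposited region overlapped the mature hsa-miR-4500 sequence, so the files give it no accessibility value.

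Library totals ranged from 7293565 to 10948569 counts. Levels are CPM, the usual counts-per-million unit. The tissue label was checked on regions that overlap marker genes or lie within 1 kb of an end. The adrenergic markers HAND2, GATA3, ISL1, PHOX2A, DBH and TH all had tested regions. Regions within 1 kb of an end of PHOX2A summed to 58.8 ± 0.909 TMM-scaled CPM in NCA, 59.9 ± 4.58 in ASO2 and 56.6 ± 1.92 in ASO10 (SD, n = 3 each). Those of HAND2 stood at 23.7 ± 4.66, 21.9 ± 4.64 and 24.3 ± 1.36 CPM in the same order, while TH had no region at an end. In these genes edgeR called 1 region higher under ASO2, within GATA3. Of the markers of other cell types, CD3E, ALB and MYOD1 had no region. The 13 regions of PTPRC, a gene of blood cells, summed to 47.8 to 52.6 CPM in NCA, 74.4 to 81.3 in ASO2 and 53.0 to 55.7 in ASO10. All ASO2 libraries thus lay above the others, at 1.53-fold the NCA mean, and ASO10 stood at 1.08-fold. Of its 12 tested regions 2 (16.7%) were called higher under ASO2, where 4.79% of all tested regions were. At its ends PTPRC read 3.24 ± 0.692 CPM in NCA, 3.79 ± 0.783 in ASO2 and 4.25 ± 0.736 in ASO10. The part of these marker regions in the results for the window was not tested.

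Accessibility at the ends of the protein-coding genes did not pass the test in any comparison. None of the 4 regions there was called by edgeR, DESeq2 or limma-voom, and at an unadjusted p under 0.05 edgeR had 1 under ASO10 and 0 under ASO2. Values for single regions are TMM-scaled CPM, and a difference is a log2 fold change with its standard error and an adjusted p from edgeR's quasi-likelihood test over all 119417 tested regions. SLITRK5, whose loss in mice causes compulsive grooming, had the widest region of the window, at chr13:87670872-87673801, over its start and the adjoining end of MIR4500HG, a long non-coding RNA gene. It read 48.2, 48.3 and 56.6 CPM in the NCA libraries, 49.4, 57.5 and 44.5 in the ASO2 libraries and 51.0, 44.8 and 48.7 in the ASO10 libraries. All 3 groups overlapped, with log2 fold changes of -0.02 ± 0.11 (adjusted p = 0.963) under ASO2 and -0.08 ± 0.12 (adjusted p = 0.854) under ASO10.

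SLITRK1, which promotes neurite outgrowth, had a region at chr13:83880519-83882173 inside the gene, 301 bases from its start. Its values were 5.54, 8.45 and 5.33 CPM in the NCA libraries, 6.46, 3.43 and 9.17 in the ASO2 libraries and 6.1, 3.75 and 5.73 in the ASO10 libraries. The groups overlapped, and the log2 fold changes were 0.00 ± 0.25 (adjusted p = 0.996) under ASO2 and -0.31 ± 0.26 (adjusted p = 0.734) under ASO10. SLITRK6, known for its role in inner ear and eye development, had a single region, at chr13:85798708-85799642 over its start. It gave 3.35, 5.17 and 5.22 CPM in the NCA libraries, 6.31, 5.26 and 7.43 in the ASO2 libraries and 7.15, 5.46 and 6.9 in the ASO10 libraries. On this TMM scale all 6 ASO libraries lay above all NCA libraries, but only by 5.26 against 5.22 CPM at the closest. The differences of 0.47 ± 0.27 (adjusted p = 0.379) and 0.50 ± 0.27 (adjusted p = 0.509) did not pass the test. Shares over the whole table were taken on CPM of a library's table total without TMM scaling. The narrow SLITRK6 gap is therefore not set against them. On that scale 2.58% of regions had every ASO library above the NCA range and 2.53% had every one below it. For single oligonucleotides, all 3 libraries lay above NCA in 10.4% of regions under ASO2 and 6.86% under ASO10, and below it in 8.55% and 7.59%. ASO2 lay wholly above ASO10 in 10.3% of regions and below it in 7.51%.

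SPRY2, an inhibitor of growth-factor receptor signalling through ERK, had its start covered by chr13:80340081-80342072. The region read 41.4, 40.6 and 45.4 CPM in the NCA libraries, 38.0, 49.8 and 42.8 in the ASO2 libraries and 51.7, 47.7 and 50.7 in the ASO10 libraries. The ASO10 libraries lay above the NCA libraries, and the ASO2 libraries overlapped both, with log2 fold changes of 0.04 ± 0.12 (adjusted p = 0.913) under ASO2 and 0.24 ± 0.12 (adjusted p = 0.456) under ASO10. Per kb of width, over all 9 libraries, the gene-end regions stood at 22.8 CPM for SPRY2, 17.0 for SLITRK5, 6.21 for SLITRK6 and 3.62 for SLITRK1. Weaker regions inside these genes, 2 in SPRY2, 2 in SLITRK1 and 1 in SLITRK5, were also uncalled where they could be tested. Leaving out 1 library turned the sign of the difference near 0 at SLITRK1, SLITRK5 and SPRY2.

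**Figure D1:**
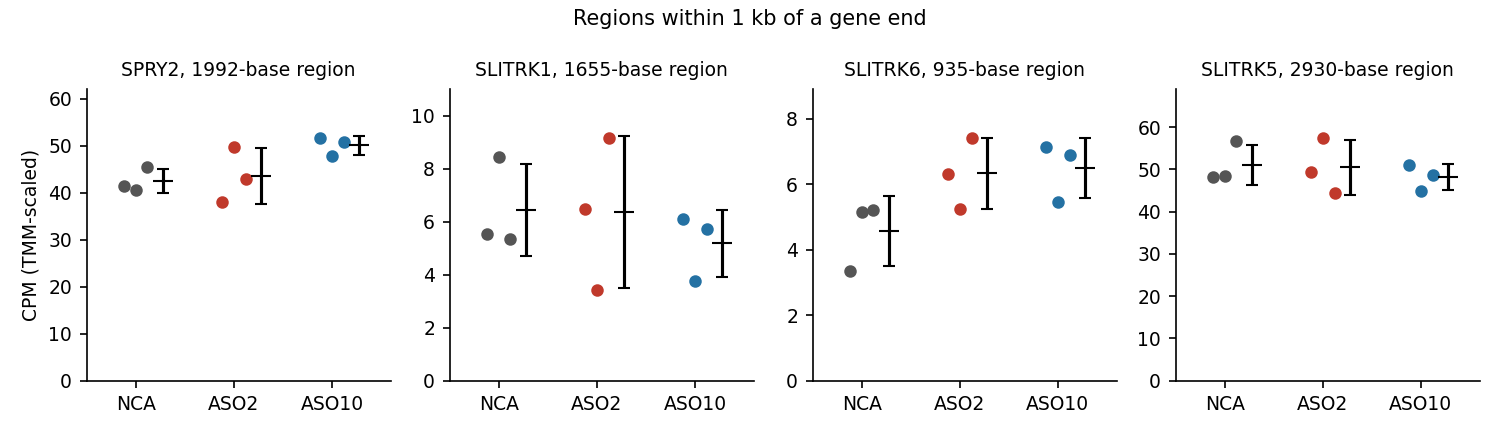
Accessibility of the 4 regions within 1 kb of an end of a protein-coding gene, as TMM-scaled CPM (vertical axis) by group (horizontal axis); points are libraries, and the bars beside them show the mean ± SD (n = 3). The groups overlap at SLITRK1 and SLITRK5. At SLITRK6 all 6 ASO libraries lie above NCA on this scale by a narrow gap, with a lowest ASO value of 5.26 CPM and a highest NCA value of 5.22.

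The region that placed the window lies at chr13:82238045-82238508, 1638.7 kb from the nearest end of SLITRK1 and in no annotated gene. It had 1, 0 and 2 counts in the NCA libraries, 14, 34 and 33 in the ASO2 libraries and 15, 11 and 14 in the ASO10 libraries. On the CPM scale this was 0.129, 0.0 and 0.227 CPM in the NCA libraries, 1.96, 3.65 and 3.03 in the ASO2 libraries and 1.76, 1.25 and 1.82 in the ASO10 libraries. No ASO library overlapped an NCA library. Against a floor of 3 counts in each NCA library, the mean of the ASO2 libraries was at least 7.82-fold higher, and that of the ASO10 libraries at least 4.37-fold higher. The floor covers counting error only. ASO2 and ASO10, which the choice of the region did not set against each other, differed by 0.84 ± 0.55 (adjusted p = 0.507) and did not pass the test.

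Of the 416 members, 6 (1.44%) had at most 3 counts in every NCA library, against 0.753% of all regions. The same number, 6, had at most 3 counts in every ASO2 library, and again 6 in every ASO10 library. Only the window-placing region among those low in NCA reached 10 counts in every ASO library, and the whole table held 2 such regions. The other 5 were too low to be tested. The nearest of them in position, chr13:80458162-80458350, had 3, 2 and 1 counts in NCA, 2, 5 and 6 in ASO2 and 3, 16 and 7 in ASO10. Its ASO ranges met the NCA range.

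The neighbours on either side of the window-placing region differed from it in pattern. On the lower side, chr13:82209379-82209610 was too weak to test, with 0.0, 0.378 and 1.36 CPM in the NCA libraries, 0.281, 0.107 and 0.55 in the ASO2 libraries and 0.117, 0.0 and 0.391 in the ASO10 libraries. On the upper side, chr13:82241608-82242215 gave 0.773, 2.65 and 1.36 CPM in the NCA libraries, 4.91, 4.51 and 3.95 in the ASO2 libraries and 1.41, 1.37 and 1.82 in the ASO10 libraries. All 3 ASO2 libraries stood above the other 6 there. It was called higher under ASO2 than under NCA, by 1.47 ± 0.44 (adjusted p = 0.0195), and than under ASO10, by 1.53 ± 0.44 (adjusted p = 0.0224). ASO10 differed from NCA there by -0.06 ± 0.48 (adjusted p = 0.98). The ASO2 call was lost without any 1 of NCA replicates 1 and 3 and ASO2 replicates 1 and 2 (highest adjusted p = 0.189). The ASO2 against ASO10 call was lost without any 1 of ASO2 replicates 1, 2 and 3 and ASO10 replicates 1, 2 and 3 (highest adjusted p = 0.115).

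The tested regions most like the window-placing region over the 9 libraries, by Pearson's r of log2 CPM with a prior count of 2, lay on other chromosomes. They were chr1:238475257-238476145, 584.3 kb from ZP4 (r = 0.989), chr7:110992824-110993351, 97.8 kb from LRRN3 (r = 0.988), and chr11:95189942-95190594, 24.4 kb from SESN3 (r = 0.986). The chromosome 1 region had 87, 80 and 119 counts in NCA, 166, 250 and 280 in ASO2 and 192, 197 and 184 in ASO10. These r values were picked as the highest of all tested regions over the same 9 libraries and are a description.

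Under ASO2, 64 of the 305 tested members were called higher than NCA and 1 was called lower, which is 21.3% of the members tested. Over all tested regions 5.6% were called in this comparison, 4.79% higher and 0.808% lower. The window was placed with this contrast known, so nothing is read from the gap between those shares. Without the placing region 63 members were called higher. The median log2 fold change of the tested members was 0.36, against -0.02 over all tested regions, and with no filter on low counts it was 0.26 over all 416 members. At an unadjusted p under 0.05 there were 113 members. Of the tested members, 3 passed the filter only through their ASO2 libraries. The count of called members fell to 38 without ASO2 replicate 2, and leaving out any other library gave 46 to 63.

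The called members were spread over the window: 22 had SLITRK1 as their nearest protein-coding gene, 21 SPRY2, 11 SLITRK5 and 10 SLITRK6. None of the 19 tested members nearest to the predicted gene LOC124900338 was called by edgeR, DESeq2 or limma-voom, and 4 had an unadjusted p under 0.05 in edgeR, 2 of them higher and 2 lower. One of the members of smallest p was chr13:80955306-80956256, 614.2 kb from SPRY2. It gave 9.4, 7.31 and 9.87 CPM in the NCA libraries, 20.9, 20.1 and 17.5 in the ASO2 libraries and 13.1, 12.2 and 15.5 in the ASO10 libraries. The groups did not overlap, and the log2 fold change was 1.13 ± 0.17 (adjusted p = 3.42e-08) under ASO2. Under ASO10 it was 0.61 ± 0.18 (adjusted p = 0.0576) and missed the threshold.

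Among the members of smallest p under ASO2, several had low NCA values. chr13:82202192-82202678, on the lower side of the placing region, read 1.29, 1.01 and 1.02 CPM in the NCA libraries, 5.61, 6.44 and 3.76 in the ASO2 libraries and 1.88, 1.93 and 0.781 in the ASO10 libraries. Every ASO2 library was above every other library, and the ASO2 difference from NCA was 2.23 ± 0.45 (adjusted p = 5.79e-05). chr13:87878689-87879384, 199.1 kb from SLITRK5, gave 0.773, 2.65 and 2.27 CPM in the NCA libraries, 9.12, 5.9 and 7.89 in the ASO2 libraries and 2.7, 2.28 and 3.39 in the ASO10 libraries, with an ASO2 difference of 1.99 ± 0.34 (adjusted p = 8.33e-07). chr13:88858862-88859520, 1179.2 kb from SLITRK5, gave 2.06, 1.13 and 2.04 CPM in the NCA libraries, 6.6, 7.19 and 5.78 in the ASO2 libraries and 3.64, 2.96 and 2.86 in the ASO10 libraries and differed under ASO2 by 1.89 ± 0.35 (adjusted p = 1.37e-05). In both of these the ASO2 libraries stood clear of the rest, and the ASO10 libraries overlapped NCA at the first but lay just above it at the second.

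The single member called lower was chr13:83321063-83321875, 555.3 kb from SLITRK1, which is named here because it was the only one and so was chosen after its values were seen. It read 1.16, 3.91 and 4.43 CPM in the NCA libraries, 1.26, 1.18 and 1.01 in the ASO2 libraries and 3.05, 2.73 and 2.08 in the ASO10 libraries. NCA replicate 1 lay within the range of the ASO2 libraries, and the log2 fold change was -1.47 ± 0.48 (adjusted p = 0.0425). No member was called lower with DESeq2, with limma-voom, with no filter, or without any 1 of NCA replicates 2 and 3, ASO2 replicates 1 and 2 and ASO10 replicates 1 and 2.

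**Figure D2:**
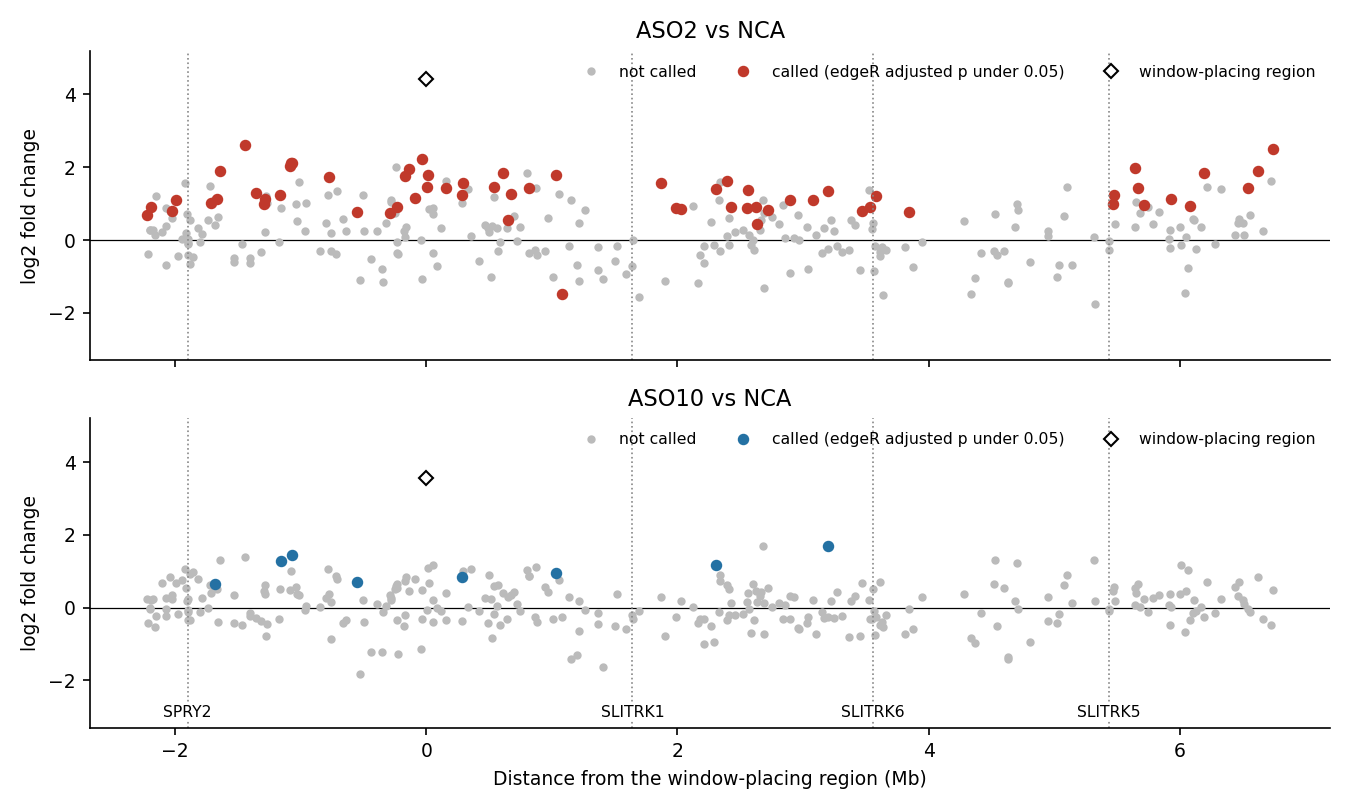
Log2 fold change against NCA of each of the 305 tested members (vertical axis) by distance in Mb from the window-placing region (horizontal axis), for ASO2 (upper panel) and ASO10 (lower panel). Filled coloured points were called, grey points were not, the open diamond is the window-placing region, and dotted lines mark the genes; called members under ASO2 lie on both sides of all 4 genes, and those under ASO10 number 8 without the diamond.

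Under ASO10, 9 members were called higher than NCA and none lower, 2.95% of those tested, where 1.09% of all tested regions were called, 0.876% higher and 0.21% lower. DESeq2 and limma-voom also called none lower. As for ASO2, the contrast had been seen when the window was placed. The median log2 fold change was 0.13 over the tested members, -0.01 over all tested regions and 0.07 over all 416 members with no filter. At an unadjusted p under 0.05 there were 51 members, 38 higher and 13 lower. The count of called members was 4 with DESeq2 and 2 with limma-voom. It was 4 without NCA replicate 1, 3 without NCA replicate 2, 4 without ASO10 replicate 1 and 4 without ASO10 replicate 3. For the average of both oligonucleotides against NCA, 32 members were called, all higher (10.5% of those tested, against 2.99% of all tested regions, 2.4% higher and 0.594% lower). That count was 9 with limma-voom, 16 without NCA replicate 1, 13 without NCA replicate 2 and 21 without ASO2 replicate 2.

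The ASO2 and ASO10 comparisons share the 3 NCA libraries. Members called higher under both numbered 7, which is 10.9% of the 64 called higher under ASO2 and 77.8% of the 9 under ASO10. Over all tested regions 548 (0.459%) were called higher under both, 9.58% of the ASO2 calls and 52.4% of the ASO10 calls, and nothing particular to the window is read from these shares. One of the 7 is the window-placing region, which leaves 6. The member chr13:84544069-84545229, within LINC00333 and LOC105370289, long non-coding RNAs between SLITRK1 and SLITRK6, gave 3.99, 6.81 and 6.47 CPM in the NCA libraries, 12.5, 15.7 and 17.0 in the ASO2 libraries and 14.0, 11.4 and 13.5 in the ASO10 libraries. All ASO libraries were above all NCA libraries, with differences of 1.39 ± 0.20 (adjusted p = 1.78e-09) under ASO2 and 1.16 ± 0.20 (adjusted p = 2.99e-05) under ASO10, and 0.23 ± 0.18 (adjusted p = 0.608) between the oligonucleotides.

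chr13:81165540-81166830, 824.4 kb from SPRY2, gave 1.67, 1.77 and 2.04 CPM in the NCA libraries, 8.56, 7.08 and 8.53 in the ASO2 libraries and 4.69, 4.78 and 5.6 in the ASO10 libraries. The groups stood in the order NCA, ASO10, ASO2 with no overlap, and the differences were 2.13 ± 0.31 (adjusted p = 6.46e-09) under ASO2 and 1.44 ± 0.33 (adjusted p = 0.00382) under ASO10. chr13:83274567-83275332, 601.9 kb from SLITRK1, gave 3.74, 2.9 and 3.06 CPM in the NCA libraries, 9.82, 12.3 and 11.0 in the ASO2 libraries and 7.86, 4.1 and 7.03 in the ASO10 libraries. The order was the same, with differences of 1.78 ± 0.25 (adjusted p = 1.74e-09) and 0.96 ± 0.27 (adjusted p = 0.0364), and ASO2 was also called above ASO10, by 0.81 ± 0.23 (adjusted p = 0.0213). The ASO10 call was lost without any 1 of NCA replicates 1, 2 and 3 and ASO10 replicates 1 and 3 (highest adjusted p = 0.36). It was also lost with limma-voom (adjusted p = 0.294) and when only these groups were fitted (adjusted p = 0.0862). The ASO2 against ASO10 call was lost without any 1 of ASO2 replicates 2 and 3 and ASO10 replicate 2 (highest adjusted p = 0.313). It was lost as well with loess offsets (adjusted p = 0.0575) and DESeq2 (adjusted p = 0.0624). chr13:82521428-82522303, 1354.9 kb from SLITRK1, gave 4.38, 5.93 and 6.35 CPM in the NCA libraries, 13.1, 14.3 and 12.6 in the ASO2 libraries and 13.1, 8.76 and 7.81 in the ASO10 libraries. There the ASO2 and ASO10 ranges overlapped, and the differences from NCA were 1.25 ± 0.21 (adjusted p = 6.64e-07) and 0.83 ± 0.22 (adjusted p = 0.0207). The ASO10 call was lost without any 1 of NCA replicates 1 and 2 and ASO10 replicate 1 (highest adjusted p = 0.452).

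The ASO10 means came closest to or passed the ASO2 means at the remaining pair. chr13:85434623-85435102, within LINC00351 and 357.7 kb from SLITRK6, gave 0.773, 1.39 and 1.7 CPM in the NCA libraries, 3.37, 4.08 and 2.66 in the ASO2 libraries and 3.75, 4.44 and 4.56 in the ASO10 libraries. The differences from NCA were 1.36 ± 0.43 (adjusted p = 0.0303) under ASO2 and 1.70 ± 0.42 (adjusted p = 0.0122) under ASO10, and ASO2 against ASO10 was -0.34 ± 0.38 (adjusted p = 0.744). The ASO2 call was lost without any 1 of NCA replicates 1 and 2 and ASO2 replicates 1 and 2 (highest adjusted p = 0.198). Further losses of that call came with limma-voom (adjusted p = 0.172) and when only these groups were fitted (adjusted p = 0.0698). The ASO10 call was lost without any 1 of NCA replicate 1 and ASO10 replicates 2 and 3 (highest adjusted p = 0.143). chr13:81686662-81687446, 1345.5 kb from SPRY2, gave 7.73, 5.67 and 8.51 CPM in the NCA libraries, 10.2, 13.3 and 13.9 in the ASO2 libraries and 12.6, 8.42 and 15.1 in the ASO10 libraries. Here ASO10 replicate 2 fell inside the NCA range, and the differences were 0.78 ± 0.20 (adjusted p = 0.00351) and 0.71 ± 0.20 (adjusted p = 0.0429). The ASO2 call was lost without NCA replicate 2 (adjusted p = 0.0861). The ASO10 call was lost without any 1 of NCA replicates 1 and 2 and ASO10 replicates 1 and 3 (highest adjusted p = 0.485). Other settings that ended it were total counts (adjusted p = 0.0607), loess offsets (0.0542), DESeq2 (0.08), limma-voom (0.198), no filter (0.053) and fitting only these groups (0.0561). Of these 6 members, only chr13:84544069-84545229 was also called under ASO10 with limma-voom.

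A further 2 members were called under ASO10 and not under ASO2. chr13:80551334-80552381, 210.2 kb from SPRY2, gave 9.66, 8.7 and 9.53 CPM in the NCA libraries, 13.8, 12.9 and 10.8 in the ASO2 libraries and 16.0, 12.4 and 15.5 in the ASO10 libraries. Both oligonucleotides stood above NCA in all libraries, with differences of 0.65 ± 0.18 (adjusted p = 0.0436) under ASO10 and 0.42 ± 0.19 (adjusted p = 0.209) under ASO2. The ASO10 call was lost without any 1 of NCA replicates 1, 2 and 3, ASO2 replicate 1 and ASO10 replicates 1 and 3 (highest adjusted p = 0.273). It also ended with total counts (adjusted p = 0.0607), loess offsets (0.0637), limma-voom (0.144) and no filter (0.0549). chr13:81080856-81081940, 739.7 kb from SPRY2, gave 3.48, 2.4 and 2.04 CPM in the NCA libraries, 4.21, 5.04 and 5.14 in the ASO2 libraries and 6.57, 6.14 and 6.64 in the ASO10 libraries, also with no overlap with NCA. It differed by 1.29 ± 0.31 (adjusted p = 0.00882) under ASO10 and by 0.87 ± 0.32 (adjusted p = 0.0832) under ASO2. The ASO10 call was lost without any 1 of NCA replicates 2 and 3 and ASO10 replicates 1 and 3 (highest adjusted p = 0.0954). Between the oligonucleotides neither member differed beyond the test's threshold, with -0.23 ± 0.18 (adjusted p = 0.587) and -0.42 ± 0.29 (adjusted p = 0.536) for ASO2 against ASO10.

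**Figure D3:**
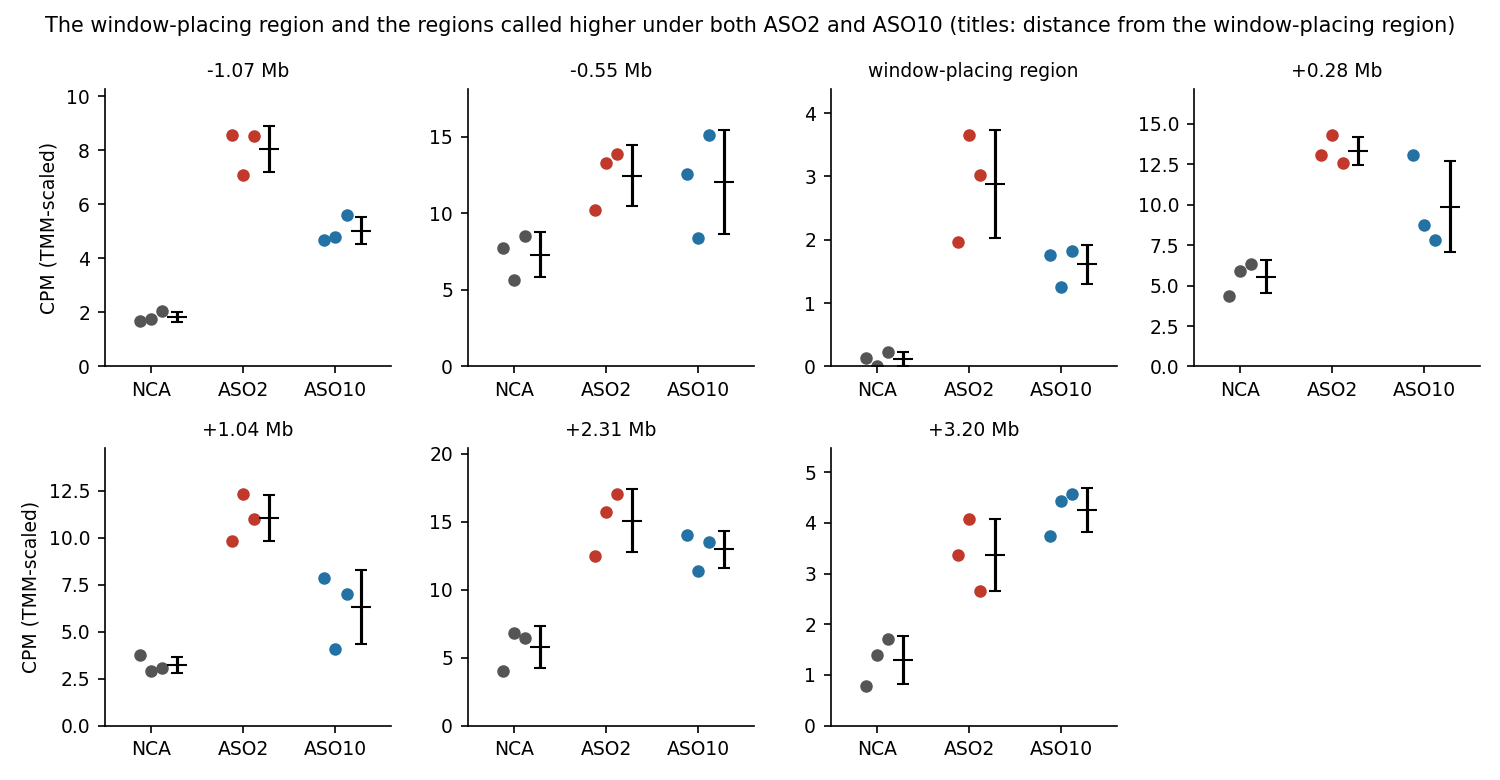
TMM-scaled CPM (vertical axes, each with its own scale) by group (horizontal axes) for the window-placing region and the 6 other members called higher under both oligonucleotides; panel titles give the distance in Mb from the window-placing region, points are libraries, and bars show the mean ± SD (n = 3). All NCA libraries lie below all ASO libraries except in the second panel, where ASO10 replicate 2 at 8.42 CPM lies below NCA replicate 3 at 8.51.

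ASO2 and ASO10 were set against each other directly, a contrast the choice of the window did not use. Of the 305 tested members, 24 were called higher under ASO2 than under ASO10 and none lower, which is 7.87% against 3.23% of all tested regions called, 2.54% higher and 0.682% lower. On the rest of chromosome 13 the share called was 3.99%, and in regions elsewhere more than 1 Mb from a protein-coding gene end it was 2.08%. Outside the window, 4.35% of tested regions at 100 kb to 1 Mb were called higher. For the window, DESeq2 and limma-voom each called 19 higher and none lower. The median log2 difference was 0.30, against 0.00 over all tested regions, and 0.26 over all 416 members with no filter. Of the tested members, 3 passed the filter only through their ASO2 libraries, which favours calls higher under ASO2. At least 1 of them is among the 24, with 0.352, 0.341 and 0.391 CPM in the ASO10 libraries and at most 1.13 in NCA. The shares above are therefore set side by side only as a description. This contrast shares the ASO2 libraries with the first one, and 19 of the 24 were also called higher under ASO2 than under NCA. At an unadjusted p under 0.05 there were 85 members, 75 higher and 10 lower. The count was 13 without ASO2 replicate 2, 13 without ASO10 replicate 2 and 15 without ASO10 replicate 3, and it was 39 when only these 6 libraries were fitted.

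The smallest adjusted p of this contrast belonged to chr13:85819307-85820100, 19.89 kb from SLITRK6. It gave 6.57, 6.18 and 5.33 CPM in the NCA libraries, 12.3, 16.6 and 12.4 in the ASO2 libraries and 7.04, 4.21 and 3.91 in the ASO10 libraries. ASO2 stood above both other groups, and ASO10 overlapped NCA: the difference between the oligonucleotides was 1.44 ± 0.22 (adjusted p = 9.94e-08), and ASO10 differed from NCA by -0.25 ± 0.24 (adjusted p = 0.78). On the other side of SLITRK6, 19.7 kb from its nearest end, chr13:85771766-85773089 gave 4.51, 5.04 and 7.49 CPM in the NCA libraries, 9.12, 13.1 and 9.73 in the ASO2 libraries and 4.69, 4.1 and 5.08 in the ASO10 libraries. Again only ASO2 stood apart, by 1.21 ± 0.24 (adjusted p = 0.000128) from ASO10 and 0.90 ± 0.23 (adjusted p = 0.00452) from NCA. The ASO2 call was lost without any 1 of NCA replicate 1 and ASO2 replicate 2 (highest adjusted p = 0.136). The region over the SLITRK6 start, which lies between these members, differed between ASO2 and ASO10 by -0.03 ± 0.26 (adjusted p = 0.974).

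The largest difference among the named members of this contrast was at chr13:88429846-88430337, 750.2 kb from SLITRK5, with 2.32, 2.02 and 0.908 CPM in the NCA libraries, 7.02, 6.01 and 5.87 in the ASO2 libraries and 1.06, 1.93 and 1.3 in the ASO10 libraries. ASO2 was higher than ASO10 by 2.12 ± 0.39 (adjusted p = 2.91e-05), while ASO10 differed from NCA by -0.27 ± 0.44 (adjusted p = 0.885). chr13:88167671-88168610, within the long non-coding RNA LINC00373, gave 5.93, 4.54 and 4.65 CPM in the NCA libraries, 10.2, 11.8 and 10.6 in the ASO2 libraries and 5.16, 4.89 and 5.21 in the ASO10 libraries. There ASO10 differed from NCA by 0.02 ± 0.26 (adjusted p = 0.991) and ASO2 was higher than ASO10 by 1.10 ± 0.24 (adjusted p = 0.000562). chr13:81465090-81466118, 1124.0 kb from SPRY2, gave 2.71, 2.52 and 3.86 CPM in the NCA libraries, 10.5, 10.5 and 9.17 in the ASO2 libraries and 4.34, 3.3 and 4.17 in the ASO10 libraries, and ASO2 was higher than ASO10 by 1.35 ± 0.26 (adjusted p = 9.26e-05). In each of these 3 members every ASO2 library was above every ASO10 and NCA library.

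Summed over the window, the counts, as CPM of a library's table total without TMM scaling, came to 1111.0 to 1232.3 in NCA, 1499.1 to 1572.4 in ASO2 and 1194.3 to 1299.8 in ASO10. The means were 1159.3 ± 64.3, 1531.8 ± 37.3 and 1239.0 ± 54.6 (SD, n = 3 each). ASO2 stood 1.32-fold above NCA and 1.24-fold above ASO10 with no overlap of libraries, and ASO10 stood 1.07-fold above NCA with overlapping ranges. Without the window-placing region these ratios were again 1.32, 1.24 and 1.07. The rest of chromosome 13 was at 1.06-fold under ASO2 and 0.991-fold under ASO10, and regions elsewhere more than 1 Mb from a protein-coding gene end were at 0.971-fold and 1.02-fold. These totals were not tested, since the members were chosen with results known. In bulk libraries, more cells with an open region and more signal per cell cannot be told apart.

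By 1-Mb bin, ASO2 stood above NCA with no overlap in 7 of the 9 bins of the window. The highest ratio, 1.62, was in the bin from 82 to 83 Mb that holds the placing region, where the summed CPM were 114.2, 116.8 and 139.7 in NCA, 199.5, 199.8 and 203.1 in ASO2 and 153.7, 148.6 and 141.3 in ASO10. The exceptions were the bin from 83 to 84 Mb with SLITRK1, at a ratio of 0.965, and the bin from 86 to 87 Mb, at 0.936. ASO10 stood above NCA with no overlap from 80 to 83 Mb, at ratios of 1.17, 1.14 and 1.20. In the SLITRK1 bin it lay below NCA with no overlap, at 75.2 to 83.1 against 85.6 to 90.5. How many bins of the chromosome lay wholly below NCA was not counted. The log2 ratio of ASO10 to NCA was -0.132 in this bin and reached -0.28 in bins of chromosome 13 outside the window, so nothing particular to SLITRK1 is read from it. The bins with SLITRK6 (85 to 86 Mb) and SLITRK5 (87 to 88 Mb) were at 1.21 and 1.19 under ASO2 and 0.961 and 1.00 under ASO10.

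**Figure D4:**
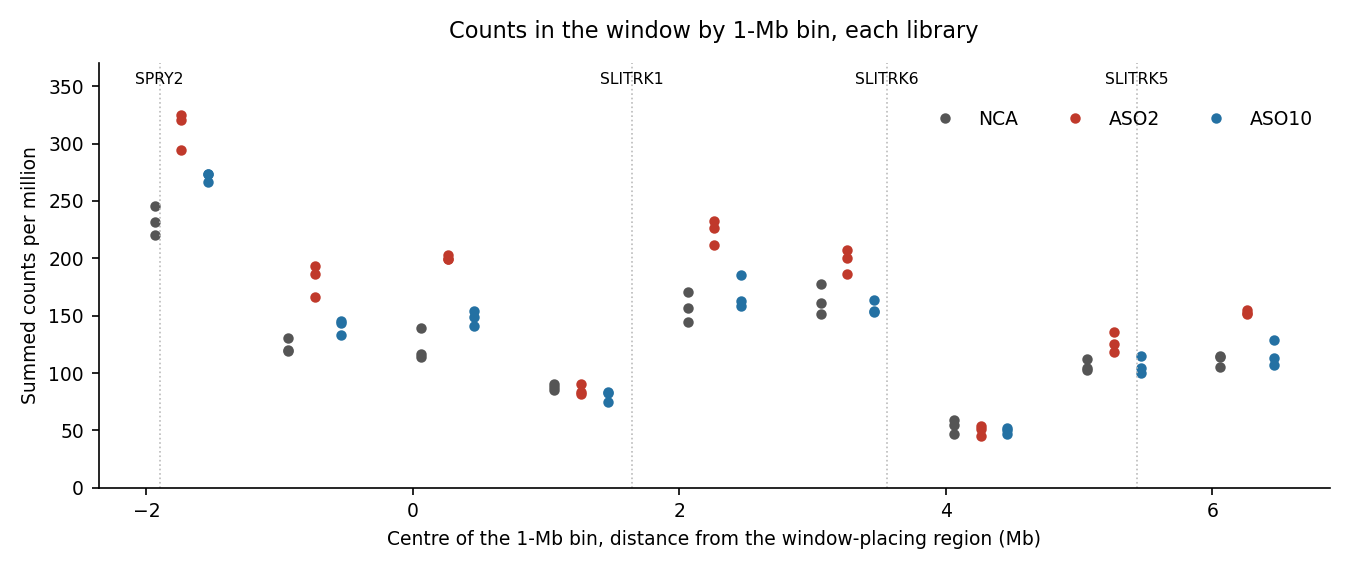
Summed CPM of each library's table total (vertical axis) in the 9 bins of 1 Mb, by distance in Mb of the bin's centre from the window-placing region (horizontal axis). Points are libraries, groups are offset sideways by 0.2 Mb for legibility, and dotted lines mark the genes; ASO2 lies above NCA in 7 bins and overlaps it in the bin with SLITRK1 and in the bin from 86 to 87 Mb.

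Bins with ASO2 above NCA were also found outside the window. Over the 90 other bins of chromosome 13 with at least 20 regions, the log2 ratio of ASO2 to NCA ranged from -0.29 to 0.87, and 42 bins had ASO2 above NCA with no overlap. Both bins from 68 to 70 Mb, at 0.867 and 0.769, were above the highest bin of the window. Under ASO10 the same bins ranged from -0.28 to 0.34, and 18 had ASO10 above NCA with no overlap. Just inside the window's lower edge, chr13:80011521-80012894 was called higher under ASO2 with a log2 fold change of 0.69 (not called without NCA replicate 2, adjusted p = 0.0502), and just outside it chr13:79966260-79966525 was at 1.03 and was not called. At the upper edge, chr13:88983458-88983938 inside was called at 2.50 and chr13:89000372-89000573 outside was at 1.20, not called.

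**Figure D5:**
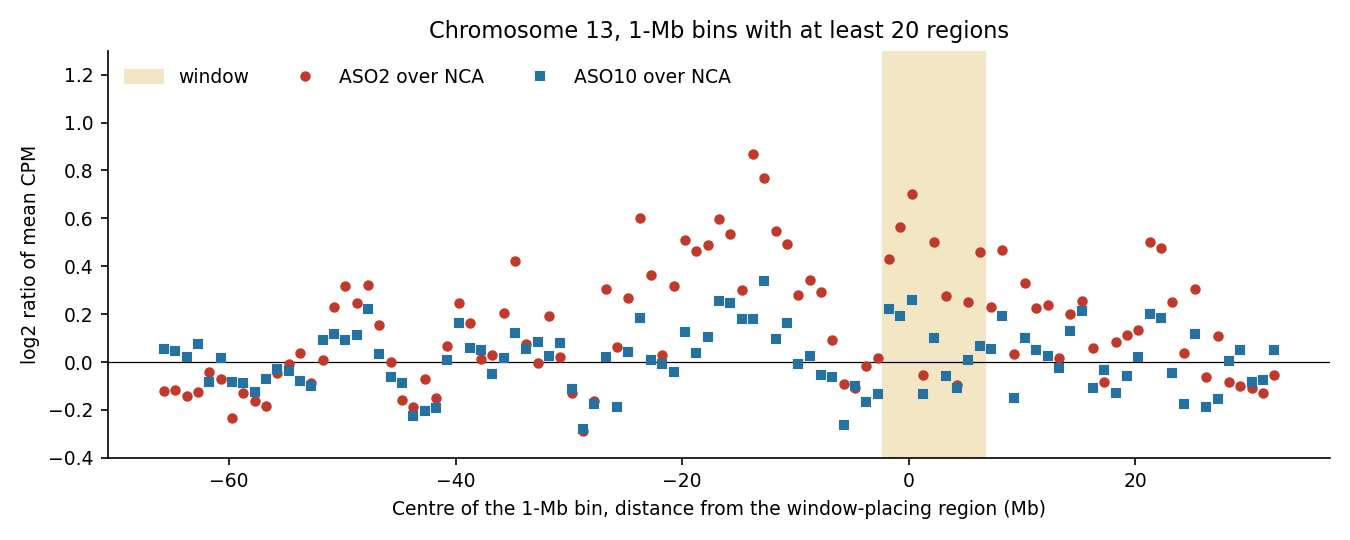
Log2 ratio of mean CPM, ASO2 to NCA (circles) and ASO10 to NCA (squares), for bins of 1 Mb on chromosome 13 with at least 20 regions (vertical axis), by distance in Mb from the window-placing region (horizontal axis); the shaded band is the window. The highest circles, at 0.867 and 0.769, lie outside the band.

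The ratio of ASO2 to NCA was higher in members far from genes than in members near them. Summed over the 95 members more than 1 Mb from a protein-coding gene end, the mean CPM were 217.5 ± 18.6 in NCA, 333.5 ± 6.02 in ASO2 and 249.9 ± 3.86 in ASO10 (SD, n = 3 each), ratios to NCA of 1.53 and 1.15. The 268 members at 100 kb to 1 Mb were at 1.33 and 1.06, the 49 at 1 to 100 kb at 1.14 and 1.01, and the 4 within 1 kb at 1.01 and 1.03. Outside the window on the main chromosomes the same classes were at 0.971, 1.02, 1.02 and 0.967 under ASO2, from the farthest to the nearest. The share of tested members called higher under ASO2 was 25.3% beyond 1 Mb, 20.5% from 100 kb to 1 Mb, 16.7% from 1 to 100 kb and 0 of 4 within 1 kb. Outside the window the same classes were at 4.83%, 9.03%, 3.89% and 0.646%. Far regions outside the window differed among themselves. On chromosome 13 the bins starting at 16 and 17 Mb, with median distances of 2595.6 and 1663.5 kb, had ASO2 log2 ratios of -0.119 and -0.118. Those starting at 89 and 68 Mb, at 1622.0 and 954.4 kb, had 0.229 and 0.867. Higher ASO2 ratios far from genes were thus not confined to the window. The window-placing region, 1638.7 kb from a gene end, is itself in the class beyond 1 Mb. Distance from genes and closeness to that region therefore overlap in part. The bin from 83 to 84 Mb, beside the bin of that region, was at 0.965 under ASO2, with a median distance of 485.7 kb. On the other side, the bin from 81 to 82 Mb was at 1.48, at 1139.7 kb. Farther away, the bins from 86 to 87 and 88 to 89 Mb were at 0.936 and 1.37, at 669.3 and 758.6 kb. The part of each was not tested, and the distance classes are described without a test.

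Per kb of width, the highest of the 10 strongest members over all 9 libraries was chr13:84874731-84875629, within the long non-coding RNA LOC105370290, at 43.8 CPM per kb, above the 22.8 of the SPRY2 start and the 17.0 of the SLITRK5 start. It read 31.3, 34.2 and 36.3 CPM in the NCA libraries, 50.4, 42.8 and 45.3 in the ASO2 libraries and 43.0, 37.9 and 32.9 in the ASO10 libraries. ASO2 lay above NCA with no overlap and was called higher by 0.44 ± 0.12 (adjusted p = 0.00891), and ASO10 overlapped both groups at 0.16 ± 0.12 (adjusted p = 0.695). The ASO2 call was lost without any 1 of NCA replicate 1 and ASO2 replicate 1 (highest adjusted p = 0.117). Next among these 10, away from gene ends, were chr13:85653793-85654780, 138.0 kb from SLITRK6, at 19.6 CPM per kb, and chr13:85095201-85096647, within LINC00375, at 17.8. The first of these differed by 0.41 ± 0.15 (adjusted p = 0.0883) under ASO2 and the second by 0.06 ± 0.14 (adjusted p = 0.89), both not called. Of the 10 members of highest mean CPM, 5 were called higher under ASO2.

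The members called higher under ASO2 were wider and stronger than the rest, as a description of what the test could call. Their median width was 753.5 bases and their median level 5.0 CPM, against 419.0 bases and 1.92 CPM for the 240 tested members that were not called. Long non-coding RNAs overlapped 17.2% of the called and 21.2% of the uncalled members. By abundance, the share called higher under ASO2 was 4.42% below a log2 CPM of 1, 16.3% from 1 to 2, 44.6% from 2 to 3 and 47.4% above 3. Over all tested regions the same classes were at 0.678%, 3.62%, 9.9% and 8.61%. The 111 members too low to test had a median width of 190.0 bases and a median level of 0.776 CPM.

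Genes of the same adhesion pathway were examined inside and outside the window. Of the 6 SLITRK genes, 4 had tested regions, overlapping the gene or within 1 kb of an end: 5 regions of SLITRK1, SLITRK5 and SLITRK6 in the window and 3 of SLITRK3 outside it. None of these 8 regions was called by edgeR, DESeq2 or limma-voom in any contrast, with 1 at an unadjusted p under 0.05 under ASO2 in edgeR and 0 under ASO10; SLITRK2 and SLITRK4 had no region. SLITRK3, on chromosome 3, had a region over its start at chr3:165196167-165197347 with a log2 fold change of -0.63 ± 0.30 under ASO2 (adjusted p = 0.247). Among 38 tested regions of the presynaptic receptors PTPRD, PTPRS and PTPRF, 1 in PTPRD was called lower under ASO2, at chr9:8643665-8644385 (-1.07 ± 0.35, adjusted p = 0.0452), a call that DESeq2 and limma-voom did not make. Among 49 tested regions of 9 other postsynaptic genes, 1 in IL1RAPL1 was called lower under ASO2, at chrX:29333058-29334774 (-1.01 ± 0.24, adjusted p = 0.00141). Over all tested regions 5.6% were called in that comparison. Under ASO10 no region of these 3 lists was called against NCA by edgeR, DESeq2 or limma-voom, and of the 95 tested regions 6 had an unadjusted p under 0.05 in edgeR, 3 higher and 3 lower. Between the oligonucleotides 2 regions of these lists were called, where 3.23% of all tested regions were. One in PTPRS, at chr19:5308467-5309781, was lower under ASO2 than under ASO10 (-0.64 ± 0.14, adjusted p = 0.00123), a call that DESeq2 and limma-voom made too. One in LRFN2, at chr6:40455510-40455721, was called higher (adjusted p = 0.00215) on low values of 4.77, 0.966 and 1.19 CPM in the ASO2 libraries against 0.352, 0.0 and 0.13 in the ASO10 libraries. DESeq2 gave it no adjusted p, and limma-voom did not call it. The median log2 fold changes under ASO2 were -0.15, -0.18 and -0.03 for the SLITRK genes, the presynaptic receptors and the other partners, against -0.02 over all tested regions.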

How the data were processed

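Accessibility was measured by ATAC-seq in 9 libraries of SK-N-BE(2)c, with 3 each for NCA, ASO2 and ASO10, grouped by the labels. The authors deposited raw counts, as whole numbers without normalization, for 148797 regions shared by all libraries. Per the submitters' processing notes, Bowtie2 2.2.6, SAMtools, MACS2 2.1.2 and DESeq2 1.42.0 were used with hg38. Read filters, the Tn5 shift, peak pooling and what was counted are not given in the sources used here. The labels name the molecule as RNA, whereas their protocol describes genomic DNA, which was followed. Coordinates are those of the region names.

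The members and the gene lists were chosen with earlier results of these data known. Some marker genes are not reported here. Regions were filtered with filterByExpr by group (a cutoff of 1.14 CPM), scaled by TMM and fitted over all 9 libraries in edgeR 4.0.16 (R 4.3.3) by its robust quasi-likelihood test, with Benjamini-Hochberg adjustment over 119417 regions at 0.05. Named regions were the placing region and its nearest region on each side, regions overlapping or within 1 kb of a protein-coding gene, the 10 of highest mean CPM, and up to 15 called regions of smallest p per contrast. Single regions are given in TMM-scaled CPM, and sums as CPM of a library's table total. Alternatives were RLE factors, total counts, loess offsets (span 0.3), DESeq2 1.42.0, limma-voom (limma 3.58.1), 2 other filters, a replicate block, fewer groups, a log2 fold change limit of 1, other window edges, each library left out and, for totals, another denominator or the strongest members left out. The fit was tested on simulated counts. No library was a copy: between replicates, chi-square over its degrees of freedom was 2.74 to 3.42. Gene names, distances and sequences came from RefSeq tables of GRCh38.p14, and region sequences were not used here. Descriptions used pandas 2.3.3 under Python 3.11.15, and plots matplotlib 3.10.9.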

Additional observations from a re-analysis of the deposited data

Results flagged for a closer look

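The effects of the 2 oligonucleotides against NCA differed by a direct test in 24 members of the window (edgeR's quasi-likelihood test, ASO2 against ASO10), all higher under ASO2. Of these, 19 were also called higher under ASO2 against NCA. Over all tested regions 3.23% were called in this contrast, 3.99% on the rest of chromosome 13, and 7.87% of the tested members. This contrast shares the ASO2 libraries with the comparison to NCA. The median log2 difference was 0.30 over the tested members and 0.00 over all tested regions.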

How the results depend on the processing

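Of 1599 pairs of a result and an alternative, 1405 were scored as unchanged. Another 168 named-region calls were lost with the direction kept, 19 counts or totals moved and 7 values reversed. Among the 1405, 1314 were named-region values that kept direction and side of the threshold. The other 91 were counts or totals that stayed within a set margin of the original. That margin let through the 49 members called by limma-voom under ASO2, against 65 by edgeR. Under ASO10, the 9 called members became 4 with DESeq2 (which gave an adjusted p for 69 members), 2 with limma-voom and 5 with a log2 fold change over 1. For both oligonucleotides, 32 became 9 with limma-voom and 18 with that fold change. For ASO2 against ASO10, 24 became 39 when only these groups were fitted. For the average of both oligonucleotides that setting equals the original fit and was not run. Leaving out 1 library gave 38 to 63 called members under ASO2, 3 to 10 under ASO10, 13 to 32 for both and 13 to 30 for ASO2 against ASO10. It gave window totals of 1.29 to 1.36 for ASO2 over NCA, 1.04 to 1.10 for ASO10 over NCA and 1.21 to 1.27 for ASO2 over ASO10. As a share of chromosome 13, the ratios were 1.24 for ASO2 over NCA and 1.15 for ASO2 over ASO10. The reversed values were log2 fold changes near 0 at gene ends. SPRY2 under ASO2 was -0.07 without ASO2 replicate 2 and 0.13 without ASO2 replicate 1. SLITRK1 under ASO2 ranged from -0.41 without ASO2 replicate 3 to 0.30 without ASO2 replicate 2, and was 0.23 without NCA replicate 2. SLITRK5 under ASO2 ranged from -0.12 without ASO2 replicate 2 to 0.07 without NCA replicate 3 or ASO2 replicate 3, and was 0.00 without ASO2 replicate 1. Under ASO10 SLITRK5 ranged from -0.24 to 0.00 over all alternatives, and was -0.13 without NCA replicate 1 and 0.00 without NCA replicate 3. Apart from fewer samples where a library was left out, the cause was not tested. With the replicate number as a block, 61, 6, 31 and 21 members were called in the ASO2, ASO10, average and direct contrasts. It ended the ASO10 calls at chr13:80551334 (adjusted p = 0.0611), chr13:81686662 (0.0576) and chr13:83274567 (0.0501), and 2 calls of named regions in the other contrasts. Whether the numbers pair the libraries is not given by the labels. Same-numbered deviations correlated at -0.0363 to 0.0126 and different-numbered ones at -0.0214 to 0.0307, which cannot settle it. The 111 members that could not be tested had a median level of 0.776 CPM, where the filter's cutoff was 1.14 CPM. The part of depth in this was not tested.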
